A study of Mus musculus with 78 samples.

Results

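The genes described here are the nuclear genes for the protein subunits of succinate dehydrogenase (complex II), the cytochrome bc1 complex (complex III), cytochrome c oxidase (complex IV) and ATP synthase (complex V), with cytochrome c itself. They were taken from a table of mouse liver gene counts by symbol (Sdha to Sdhd, Cyc1, Cycs, and symbols starting Uqcr, Cox4 to Cox8 or Atp5) where the gene was protein coding and reached 1 CPM (a count scaled to the size of its library) in 3 or more libraries. Of 43629 genes in the table, 56 matched by symbol, 7 of these were pseudogenes, 3 of the protein-coding genes were too low, and 46 were kept: 4 of complex II, 9 of complex III, cytochrome c, 15 of complex IV and 17 of complex V. The genes left out for level were Cox4i2, which reached at most 0.525 CPM, Cox7b2 and Cox8c, while those just inside were Cox8b (1 CPM or more in 7 of 78 libraries), Cox6a2 (10), Cox6b2 (18) and Cox7a1 (36). The other 42 genes reached 1 CPM in every library.

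The study compared the livers of mice under treatments and mutations that lengthen life in mice, each with its own controls, in 26 groups of 3 animals. UM-HET3 mice of both sexes were measured at 6 months of age, after 2 months of acarbose (1000 ppm), rapamycin (42 ppm), Protandim (1200 ppm), 17-alpha-estradiol (14.4 ppm) or calorie restriction by 40%, and at 12 months, after 8 months of acarbose (1000 ppm), rapamycin (14 ppm) or calorie restriction by 40%, beside untreated controls of the same sex and age. Male C57BL6/J mice of 14 months had eaten a diet with 0.12% methionine for 12 months and their controls one with 0.86%. Males lacking the growth hormone receptor (GHRKO, stock (C57BL6/JxBALB/cByJ)/F2) and Snell dwarf males (stock (PW/JxC3H/HeJ)/F2) were 5 months old, with male controls of the same stocks and age. Both mutations act in the whole animal, on growth hormone signalling in GHRKO and on the pituitary in Snell dwarfs, so liver and systemic effects cannot be told apart. UM-HET3, GHRKO and Snell dwarf mice ate Purina 5LG6 chow, restricted or with the drug added.

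Electrons from succinate enter the respiratory chain through complex II, pass by ubiquinone to complex III and by cytochrome c to complex IV, which reduces oxygen; complexes III and IV pump protons, and complex V uses the proton gradient to make ATP. Complex II is encoded in the nucleus alone, while complexes III, IV and V each join nuclear subunits to a few encoded by mitochondrial DNA (mtDNA). In liver this chain pays for gluconeogenesis and urea synthesis and takes up the electrons from fatty acid oxidation; nuclear respiratory factor 1 (NRF1), the ETS factor GABP and the coactivator PGC-1alpha with ERRalpha are known activators of these nuclear genes.

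The promoters of 4 genes on which the results turn are printed here, since many of the 46 genes moved together and their start regions could be read. Sdhb rose in calorie restriction at 6 months and in both dwarf models, Cox7a1 had the largest rise in each dwarf model, Atp5k rose in GHRKO and fell in methionine restriction, and Cycs, for cytochrome c, rose in the older calorie-restricted mice alone among the 4 comparisons in which several genes rose. Each sequence runs 5′ to 3′ along the gene, from RefSeq on build GRCm38.p6, with 250 bases before the transcription start and 30 from it; capitals mark the NRF1 core motif and the ETS letters CCGGAAG on either strand.
Sdhb, chr4:140961021-140961300, plus strand: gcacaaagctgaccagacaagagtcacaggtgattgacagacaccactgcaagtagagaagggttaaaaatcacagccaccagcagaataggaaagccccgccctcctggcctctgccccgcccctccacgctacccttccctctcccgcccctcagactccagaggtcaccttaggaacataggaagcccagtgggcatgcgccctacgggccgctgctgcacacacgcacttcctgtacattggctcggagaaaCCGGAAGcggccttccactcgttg
Cox7a1, chr7:30183921-30184200, plus strand: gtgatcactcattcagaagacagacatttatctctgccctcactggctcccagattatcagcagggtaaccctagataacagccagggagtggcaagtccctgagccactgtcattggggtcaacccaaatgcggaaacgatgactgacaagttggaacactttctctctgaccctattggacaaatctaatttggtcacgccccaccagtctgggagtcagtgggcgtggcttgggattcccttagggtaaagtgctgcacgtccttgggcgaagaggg
Atp5k, chr5:108434370-108434649, minus strand: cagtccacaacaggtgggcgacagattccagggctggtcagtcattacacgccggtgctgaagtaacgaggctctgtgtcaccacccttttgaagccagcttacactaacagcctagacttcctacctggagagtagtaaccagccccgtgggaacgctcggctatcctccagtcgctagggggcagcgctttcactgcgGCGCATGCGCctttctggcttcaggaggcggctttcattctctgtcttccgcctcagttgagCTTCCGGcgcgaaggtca
Cycs, chr6:50566540-50566819, minus strand: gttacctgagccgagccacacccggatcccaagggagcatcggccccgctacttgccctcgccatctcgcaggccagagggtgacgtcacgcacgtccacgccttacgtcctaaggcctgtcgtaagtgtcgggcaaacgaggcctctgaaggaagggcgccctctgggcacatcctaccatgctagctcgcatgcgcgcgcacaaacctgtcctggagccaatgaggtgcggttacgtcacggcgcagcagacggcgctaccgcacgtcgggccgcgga

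Sdhb held 1 exact ETS match, and Atp5k held 1 exact NRF1 and 1 exact ETS match. The windows of Cox7a1 and Cycs held no exact match to either. The printed windows of Sdhb and Cycs each hold letters that differ from the NRF1 core motif at 1 base. Such near matches were not counted. RefSeq windows of 300 bases (250 before and 50 after the start) were matched for 36 of the 46 genes, 2 of them through an older symbol. The NRF1 core motif was in 10 of the 36 genes (27.8%), against 5.19% of 27025 genes with such a window, and the ETS letters in 12 (33.3%) against 9.93%. The YY1 letters AAGATGGC were in 3 genes (8.33%, against 3.19% of all genes), and TATAAA in 2, Atp5l and Cox8b (5.56%, against 15.7%). Sdhd, Cox6a1, Atp5h and Atp5k held both the NRF1 and the ETS motif. Both strands were searched, each motif on its own, and a match describes the letters of the window and is not a binding site. Nor does the lack of an exact match show that a site is absent.

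Libraries held 15521588 to 37778510 counts, and the 46 genes together took 0.795 to 1.43% of them (median 1.04%). The 7 hepatocyte markers summed to 63159 to 205066 CPM in every library, and 9 libraries also held over 1000 counts of marker genes of skeletal muscle, adrenal gland, kidney or exocrine pancreas: calorie-restricted female 2 and male 2 of 6 months, rapamycin male 3 of 12 months and Snell dwarf 1 for muscle, rapamycin male 2 of 6 months and calorie-restricted female 1 of 12 months for adrenal gland, 17-alpha-estradiol male 2 for kidney, and acarbose male 3 and Protandim female 3 of 6 months for pancreas. Levels below are CPM scaled by the trimmed mean of M-values (TMM), each change is a log2 fold change ± SE from edgeR's quasi-likelihood fit with n = 3 libraries a group, and a gene is said to rise or fall where its Benjamini-Hochberg adjusted p over all genes tested was under 0.05. Shares of all genes called by edgeR are at this adjusted p. No share of all genes at an unadjusted p was computed to set beside members counted at one. The replicates are separate mice per the series' design. In liver tissue, fewer cells of a type and less RNA per cell cannot be told apart in these values. The hepatocyte marker sums mainly follow Alb, which alone had a median of 82830 CPM, and can part from the other markers. In acarbose females of 6 months the sum was 135464 to 148840 CPM against 111036 to 114177 CPM in controls. There 3 of the 7 markers had positive log2 fold changes, with a median of -0.11. Counts were not stated to use strand, and genes with close copies (Atp5g1, Atp5g2 and Atp5g3, which encode the same mature subunit c, and genes with processed pseudogenes) may share reads.

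In the 6 control libraries of 6 months, levels per kilobase of exon ran over several orders of magnitude. Cox6a1, for the ubiquitous form of a complex IV subunit, was highest at 728 ± 108 CPM per kilobase (SD, n = 6), followed by the catalytic-head subunits Atp5a1 at 352 ± 21.5 and Atp5b at 322 ± 18.4, Cox8a at 317 ± 45.5 and Cox4i1 at 306 ± 33.9 CPM per kilobase. The last 4 overlapped in range, so their order is not set by these libraries. The lowest were Atp5s at 1.82 ± 0.25, Cox7a1 at 1.54 ± 0.62, Cox8b at 1.40 ± 3.12, Cox6b2 at 0.99 ± 0.29 and Cox6a2 at 0.05 ± 0.08 CPM per kilobase; all but Atp5s are the isoforms that muscle, brown fat or testis use in place of a ubiquitous one. Of the complex II genes, Sdhd (145 ± 18.8 CPM per kilobase), for a membrane anchor, and Sdha (144 ± 11), for the flavoprotein, stood above Sdhb (69.6 ± 6.31), for the iron-sulfur subunit, and Sdhc (27.3 ± 1.78), for the other anchor. Female and male controls differed in 0 of 46 genes at 6 months (edgeR; 2 at an unadjusted p under 0.05, 0 by DESeq2), where 4.98% of all genes tested passed, and in 0 of 43 at 12 months (0 at an unadjusted p under 0.05, 0 by DESeq2), where 2.88% passed.

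**Figure D1:**
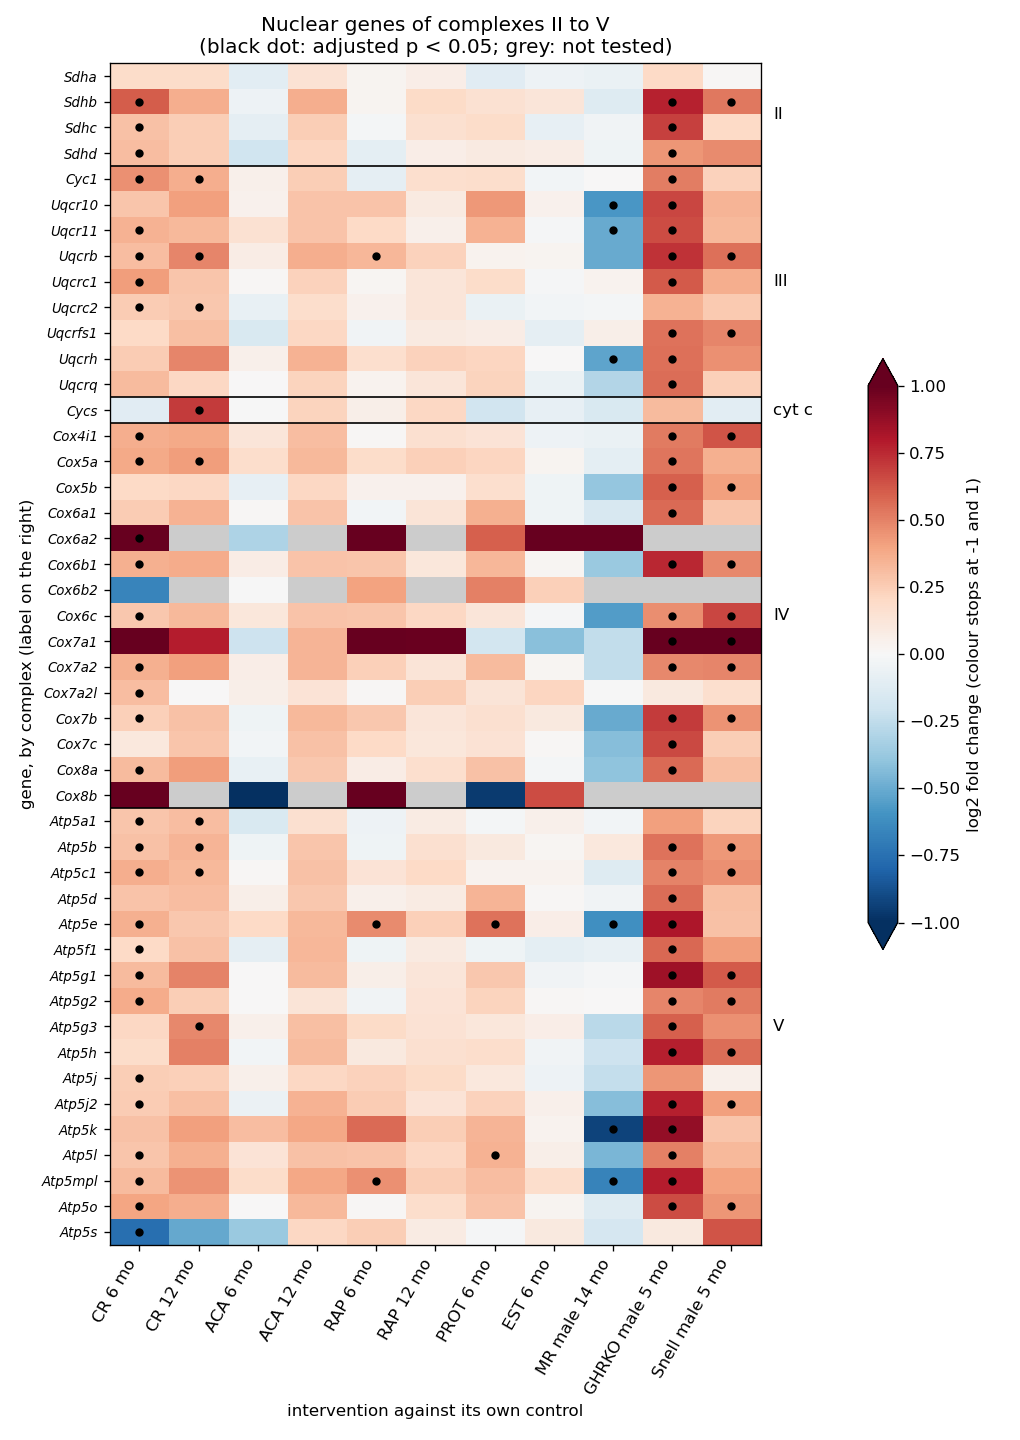
Each row is 1 of the 46 genes, grouped by complex, each column is 1 intervention against its own control (mean of the sexes at 6 and 12 months), colour is the log2 fold change and a black dot marks an adjusted p under 0.05. The GHRKO column is nearly all red with 36 dots, calorie restriction at 6 months has 30, Snell dwarf 17, and methionine restriction has 6 dots, all blue.

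GHRKO livers had the most widespread change. Of 43 genes tested, 36 rose and none fell, against 14.8% of all 12571 genes called in either direction (7.25% higher), and the median log2 fold change of the 43 was 0.56 against -0.01 over all genes. By complex, 3 of 4 genes rose in complex II, 8 of 9 in complex III, 11 of 12 tested in complex IV and 14 of 17 in complex V, with medians of 0.56, 0.56, 0.57 and 0.58. Cox6a2, Cox6b2 and Cox8b were too low to be tested. The 7 tested genes that missed the threshold had smaller positive values: Sdha (0.20), Uqcrc2 (0.35), Cox7a2l (0.10), Atp5a1 (0.41), Atp5j (0.44), Atp5s (0.10) and Cycs (0.32).

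Atp5h, for subunit d of the peripheral stalk of ATP synthase, measured 242, 241 and 221 CPM in GHRKO and 128, 130.3 and 153 CPM in controls. All 3 GHRKO libraries lay above all controls, a log2 fold change of 0.77 ± 0.12 (adjusted p = 0.00363, edgeR). Atp5g1, for the rotor subunit c, measured 267, 212 and 238 CPM against 126, 122 and 151 CPM, again without overlap (0.84 ± 0.14, adjusted p = 0.00425). Sdhc measured 295, 260.0 and 267 CPM against 174, 174 and 164 CPM. Its groups were far apart relative to their spread (0.68 ± 0.11, adjusted p = 0.00486), and Sdhb, at 451, 361 and 406 CPM against 249, 243 and 219.5 CPM, rose by 0.77 ± 0.13 (adjusted p = 0.00506). The flavoprotein gene Sdha showed no such separation: 632, 677 and 784 CPM in GHRKO overlapped 716, 606 and 501 CPM in controls. Of the catalytic subunits, Atp5b rose by 0.54 ± 0.16 (adjusted p = 0.045) and Cyc1, for cytochrome c1, by 0.51 ± 0.14 (adjusted p = 0.037).

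The summed level of the 7 hepatocyte markers was higher in GHRKO (140215 to 158074 CPM) than in controls (90917 to 104918 CPM), with no overlap, and Kupffer cell and macrophage markers were 119 to 198 CPM against 76.2 to 137 CPM. Lymphocyte markers were low in both but did not overlap, at 4.64 to 7.33 CPM against 2.89 to 4.26 CPM. Their part in the rise of the 46 genes was not tested. Leaving out 1 library at a time left 16 to 30 of the genes called, 16 without control 2, 18 without control 1 and 22 without GHRKO 1, with medians from 0.48 to 0.63. With a trend on exon length and GC content removed from each library, 25 rose.

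Snell dwarf livers shared the direction with fewer genes past the test. Of 43 genes tested, 17 rose and none fell, against 20.1% of 12528 genes called (9.34% higher), with a median of 0.41 against 0.01 over all genes. These were Sdhb in complex II, Uqcrb and Uqcrfs1 in complex III, 7 of 12 tested genes in complex IV and 7 of 17 in complex V. All 17 were among the 36 that rose in GHRKO, so they made up 100% of the Snell list and 47.2% of the GHRKO list, in comparisons that share no library; 36 of 43 is most of the genes that could be shared. Cycs, which carries electrons from complex III to complex IV, stood apart at -0.11 ± 0.16, with 121, 186 and 160 CPM in the dwarfs against 171, 171 and 161 CPM.

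Cox7a1, for the heart and muscle form of subunit 7a of complex IV, measured 5.47, 4.0 and 4.68 CPM in Snell dwarfs and 1.44, 1.0 and 0.95 CPM in controls. The lowest dwarf library was far above the highest control, a log2 fold change of 2.06 ± 0.26 (adjusted p = 0.00133, edgeR). Snell dwarf 1 held 6032 counts of muscle markers, but dwarfs 2 and 3 held 10 and 4, and the rise was 1.94 without library 1. In GHRKO Cox7a1 was 4.42, 2.14 and 2.25 CPM against 1.20, 1.38 and 0.90 CPM (1.32 ± 0.36, adjusted p = 0.038). GHRKO library 1, the highest, also held 280 counts of muscle markers and 60 of Ucp1, the brown fat uncoupling protein, where GHRKO 2 and 3 held 8 muscle counts each and no Ucp1. Without it the difference was 0.92 and did not pass, nor did it pass without any 1 of the 3 controls (1.17 to 1.47).

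Sdhb measured 355, 371 and 366 CPM in Snell dwarfs against 246, 243 and 270 CPM, a narrow spread with a wide gap (0.52 ± 0.11, adjusted p = 0.011). Cox6c, a small complex IV subunit, measured 227, 305 and 238 CPM against 152, 154 and 179 CPM, with library 2 highest (0.67 ± 0.14, adjusted p = 0.014). Hepatocyte markers summed to 140745 to 169465 CPM in the dwarfs and 86389 to 112343 CPM in controls, and the 7 lymphocyte markers to 4.90 to 6.94 CPM against 1.42 to 3.84 CPM. Neither overlapped, and their part in the result was not tested. Without dwarf 1, 22 genes rose, while leaving out control 1 or control 2 left 1, dwarf 2 left 5, control 3 left 7 and dwarf 3 left 10.

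**Figure D2:**
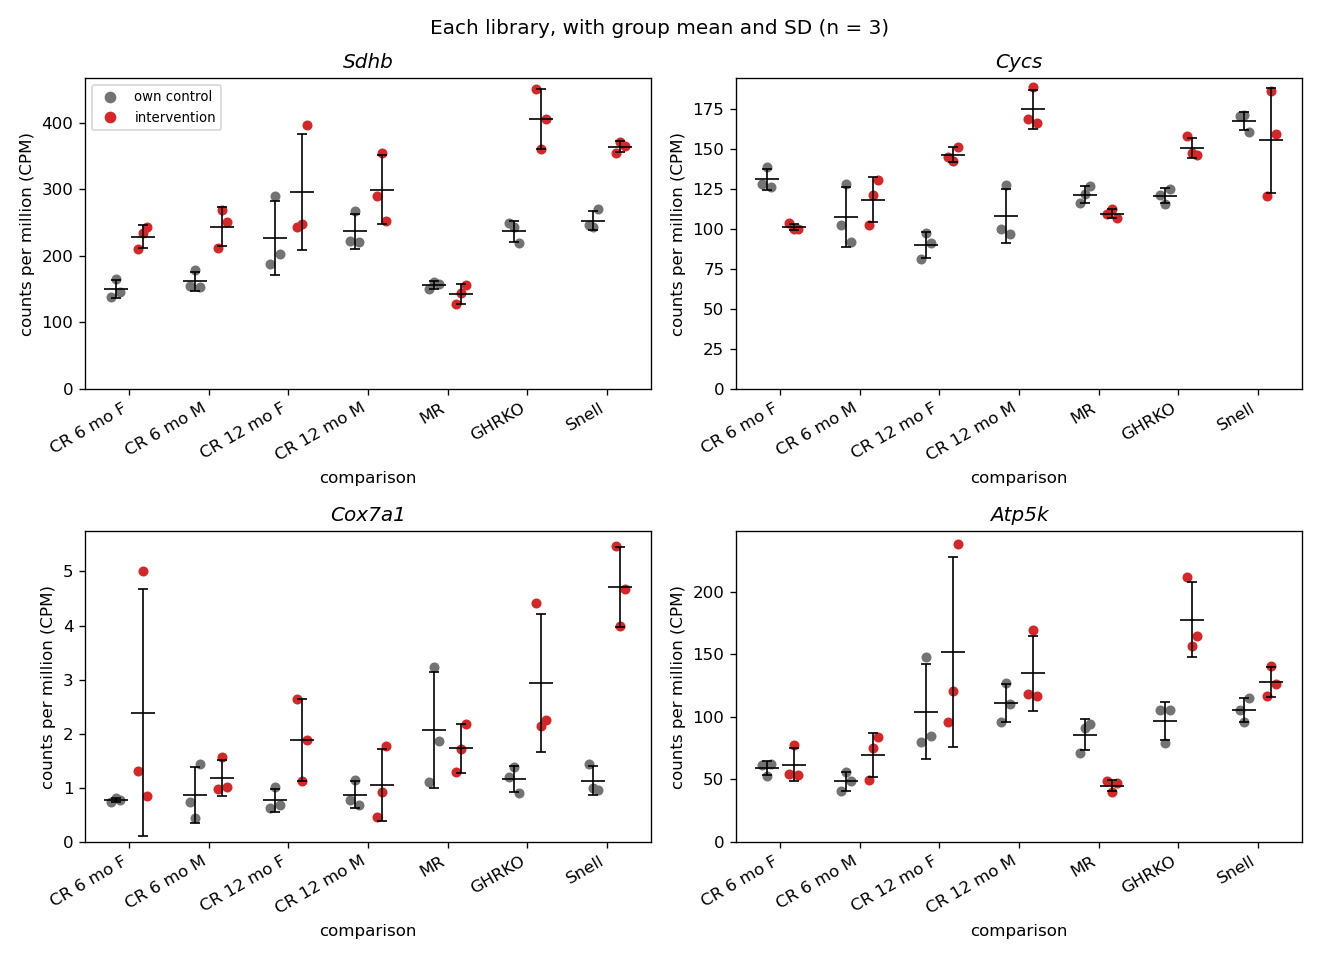
Points are single libraries in TMM-scaled CPM, grey for controls and red for the intervention, with the group mean and SD (n = 3), for Sdhb, Cycs, Cox7a1 and Atp5k in 7 comparisons. Sdhb is higher than every control in calorie restriction at 6 months, GHRKO and Snell dwarf, Cycs is higher in calorie restriction at 12 months and not at 6, and Atp5k is lower in methionine restriction and higher in GHRKO.

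Calorie restriction at 6 months raised genes of all 4 complexes in the mean of the sexes. Of 46 genes tested, 29 rose and 1 fell, against 26.1% of 14816 genes called (12.5% higher), with a median log2 fold change of 0.29 against 0.00 over all genes. In complex II 3 of 4 rose, in complex III 5 of 9, in complex IV 9 of 15 and in complex V 12 of 17. The rises were modest: apart from Cox6a2, described with the isoforms, the largest was Sdhb.

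Sdhb measured 209.9, 234 and 243 CPM in restricted females against 138, 165 and 146 CPM, and 212, 269 and 250.3 CPM in restricted males against 154, 179 and 153 CPM. Every restricted library was above every control of its sex, a mean rise of 0.60 ± 0.09 (adjusted p = 1.96e-05, edgeR). Of the other complex II genes Sdhc (0.29 ± 0.08, adjusted p = 0.011) and Sdhd (0.31 ± 0.09, adjusted p = 0.015) rose, and Sdha did not pass (0.18 ± 0.08, adjusted p = 0.11). Atp5c1, for the gamma subunit of the rotating stalk, measured 217, 224 and 224 CPM in restricted females against 172, 183 and 194 CPM, and 215, 245 and 252 CPM in males against 168, 188 and 165 CPM. Neither sex overlapped its controls (0.36 ± 0.07, adjusted p = 0.000226). Uqcrc2, for a core subunit of complex III, measured 256, 245 and 264 CPM against 207, 237 and 220 CPM in females, and 238, 255 and 266 CPM against 198, 214 and 202 CPM in males (0.26 ± 0.06, adjusted p = 0.00155). Cyc1 rose by 0.45 ± 0.11 (adjusted p = 0.00309).

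Atp5s was the gene that fell. It encodes coupling factor B, an accessory protein that RefSeq lists as Dmac2l, and it measured 1.52, 1.81 and 3.68 CPM in restricted females against 4.15, 3.12 and 4.14 CPM, and 1.39, 2.01 and 2.78 CPM in males against 3.32, 4.20 and 3.33 CPM. Female 3 overlapped its controls and the other 5 restricted libraries did not (-0.75 ± 0.19, adjusted p = 0.00388). At 12 months its value was -0.51 ± 0.20, which did not pass (adjusted p = 0.098).

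Within 1 sex fewer genes passed. In females 5 of 46 rose (Sdhb, Cox6a2, Cox5a, Atp5o and Atp5c1; 17% of all genes called, 7.73% higher) and in males 10 (7.84% called, 3.66% higher), with medians of 0.22 and 0.36, and the difference between the sexes passed in 0 genes (edgeR; 3 at an unadjusted p under 0.05, 0 by DESeq2), where 0.00675% of all genes passed. Female 2 and male 2 held 23766 and 3427 counts of muscle markers. Without them and the other libraries with other-tissue markers, 10 of the genes were called in the mean of the sexes, Sdhb, Cyc1, Uqcrb, Uqcrc1, Uqcrc2, Cox5a, Cox7a2, Atp5b and Atp5c1 higher and Atp5s lower, and 1 in each sex; Sdhb was then 0.55. Hepatocyte markers summed to 108971 to 127955 CPM in restricted males against 74217 to 90713 CPM, without overlap. In females the sum was 110915 to 135524 CPM against 111036 to 114177 CPM. The part of these markers in the result was not tested. In that mean, 19 were called without female 2 and 37 without male 1. Within females the count was 1 without female 2 or control 1, 2 without control 2 and 3 without female 1. Within males it was 2 without male 2, control 1 or control 3, 3 without male 3, 18 without control 2 and 24 without male 1.

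Cytochrome c separated the ages of calorie restriction. Cycs measured 145, 143 and 152 CPM in restricted females of 12 months against 81.2, 97.4 and 91.3 CPM, and 169, 189 and 167 CPM in males against 99.7, 128 and 97.1 CPM. Restricted libraries of both sexes lay above all controls of their sex, and the rise was 0.70 ± 0.16 in females (adjusted p = 0.015), 0.69 ± 0.16 in males (adjusted p = 0.019) and 0.70 ± 0.11 in their mean (adjusted p = 0.000369, edgeR). At 6 months it was 103, 100 and 99.8 CPM in restricted females against 128, 139 and 126 CPM, and 103, 122 and 131 CPM in males against 103, 128 and 91.7 CPM. There the females lay below their controls and the males overlapped theirs, with a mean of -0.12 ± 0.10 (adjusted p = 0.45). The effect at 12 months minus that at 6 was 0.81 ± 0.15 (adjusted p = 0.000207), and Cycs was the 1 gene of 46 that passed this test, where 12.8% of all 15159 genes passed. The groups differ in age and in length of restriction at once, so the effects of these cannot be told apart.

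At 12 months 9 of 43 genes tested rose and none fell in the mean of the sexes, against 13.8% of 13639 genes called (6.74% higher), with a median of 0.33 against -0.01 over all genes; complex II had 0 of 4. Atp5b, for the catalytic beta subunit, measured 1526, 1553 and 1651 CPM in restricted females against 1216, 1392 and 1231 CPM, and 1635, 1593 and 1508 CPM in males against 1182, 1300.3 and 1169 CPM, with no overlap in either sex (0.34 ± 0.09, adjusted p = 0.012). Atp5a1, for the alpha subunit, measured 1210, 1271 and 1317 CPM against 939, 1130 and 1012 CPM in females, and 1334, 1307 and 1225 CPM against 973, 1153 and 995 CPM in males (0.31 ± 0.09, adjusted p = 0.024). These also did not overlap. Hepatocyte markers summed to 146484 to 205066 CPM in restricted females against 130766 to 137919 CPM. In males the sum was 146158 to 157558 CPM against 78436 to 111883 CPM. Neither sex overlapped, and the part of these markers in the result was not tested. Within a sex Cycs was the 1 gene called, against 4.72% of all genes in females and 3.09% in males, and the sexes differed in 0 genes (edgeR; 0 at an unadjusted p under 0.05, 0 by DESeq2), where 0% of all genes passed.

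Of the 29 genes that rose at 6 months and the 9 at 12 months, 7 were shared (24.1% and 77.8% of the lists): Cyc1, Uqcrb, Uqcrc2, Cox5a, Atp5a1, Atp5b and Atp5c1. The list at 6 months shared 24 genes with GHRKO (82.8% and 66.7%) and 13 with Snell dwarf (44.8% and 76.5%). As 36 of 43 genes tested rose in GHRKO, a share of that size would be met by most lists of these genes. Uqcrb, Atp5b and Atp5c1 rose in all 4 comparisons. The count at 12 months moved widely when 1 library was left out: it was 2 without restricted male 2, control female 1, control male 1 or control male 3, 4 or 5 without restricted female 2, restricted female 3, control female 3 or restricted male 3, 6 without restricted male 1 and up to 12 without restricted female 1. Within a sex the call of Cycs was lost without control female 1 in females, and without restricted male 2, control male 1 or control male 3 in males. In the mean of the sexes it held under every alternative run (0.66 to 0.77).

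Methionine restriction was the comparison in which genes fell. Of 44 tested, 6 fell and none rose, against 3.8% of 13858 genes called (1.87% lower), with a median of -0.16 against 0.00 over all genes. Atp5k, for subunit e of ATP synthase, which helps hold its dimers, measured 48.3, 40.0 and 46.6 CPM in restricted mice and 71.3, 91.4 and 94.2 CPM in controls. No restricted library reached the lowest control (-0.93 ± 0.13, adjusted p = 0.012). Uqcrh, for the hinge protein of complex III, measured 75.5, 71.5 and 70.8 CPM against 97.8, 114 and 101 CPM (-0.52 ± 0.10, adjusted p = 0.029). Atp5e, for the epsilon subunit of the rotor, measured 133, 135 and 121 CPM against 172, 227 and 195 CPM (-0.61 ± 0.12, adjusted p = 0.038). Groups were again apart, with control 1 the lowest control in all 3 genes. Uqcr11 (-0.50), Uqcr10 (-0.58), both small subunits of complex III, and Atp5mpl (-0.67), a small proteolipid of ATP synthase, also fell. All 6 had risen in GHRKO, where they made up 16.7% of the list. As 36 of 43 genes tested rose there, most lists of these genes would overlap it so. The strains, ages and controls differ.

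All 6 genes code for short proteins, with 270 coding bases or fewer. This bound was chosen after the values were seen. The 14 genes at or under it, among the 42 at 1 CPM in every library, had a median of -0.50. The 28 longer ones had a median of -0.07. All 14 shorter genes had risen in GHRKO, so any of them that fell here would be shared with it. Complex II, whose genes are longer, had a median near 0 (-0.06). Over the 42 genes the change and the coding length had a Spearman rho of 0.82, a description across genes of the same 6 libraries, which are not independent replicates. A trend on exon length and GC content over all genes, removed from each library, left a rho of 0.77 and 3 genes called, Uqcrh, Atp5e and Atp5k. The order ran the other way in rapamycin at 6 months (rho -0.73; medians 0.26 for short and 0.03 for longer genes) and Protandim (-0.59), in acarbose at 6 months (-0.51; 0.06 and 0.00) and 12 months (-0.37; 0.31 and 0.26), and in GHRKO (-0.40; 0.67 and 0.54), and was near 0 in Snell dwarf (0.06) and calorie restriction at 6 months (0.04). Rapamycin, Protandim, acarbose and calorie restriction at 6 months were set against the same 6 control libraries, so their values are not independent. The number called in methionine restriction was 0 without control 3 or restricted 2, 1 without control 2, restricted 1 or restricted 3, and 17 without control 1.

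**Figure D3:**
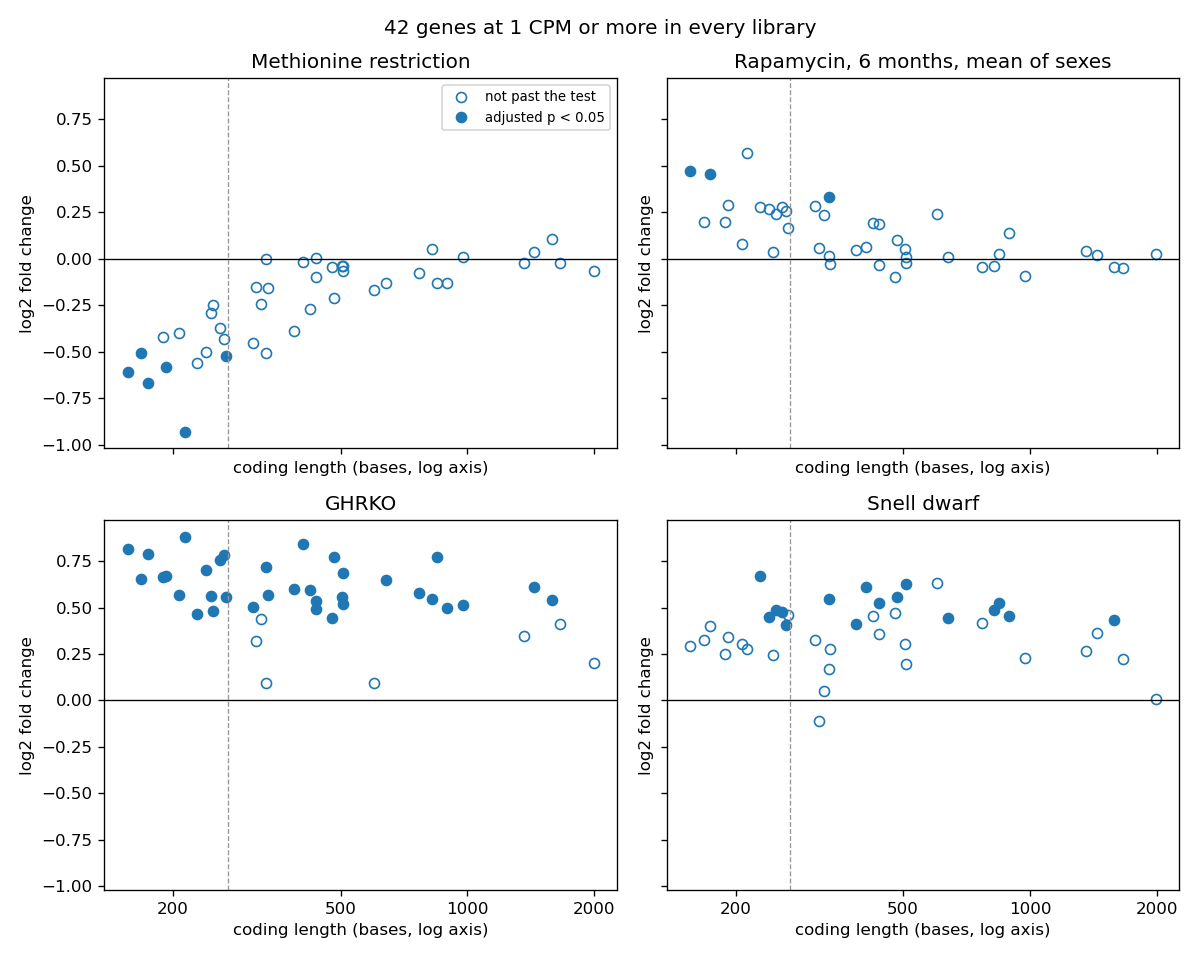
Each point is 1 of the 42 genes at 1 CPM or more in every library, with coding length in bases on a log axis against log2 fold change in 4 comparisons; filled points passed at an adjusted p under 0.05 and the dashed line marks 270 bases. In methionine restriction the short genes are lowest, in rapamycin they are highest, and in GHRKO and Snell dwarf short and long genes lie above 0, except Cycs in Snell dwarf.

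Protandim, a mixture of plant extracts, and rapamycin, an inhibitor of the kinase mTOR, moved a few genes upwards. In Protandim females 8 of 46 rose and none fell, against 5.35% of 14816 genes called (2.75% higher), with a median of 0.36 against 0.00 over all genes. These were Uqcr10 and Uqcr11 of complex III, Cox6a1, Cox6b1 and Cox7a2 of complex IV, and Atp5d, Atp5e and Atp5l of complex V. Atp5e measured 228, 259.7 and 208 CPM against 131, 125 and 156 CPM (0.76 ± 0.16, adjusted p = 0.011, edgeR). Uqcr10 measured 137, 164 and 129 CPM against 92.0, 95.1 and 94.3 CPM (0.61 ± 0.16, adjusted p = 0.031), and Uqcr11 183, 245 and 219 CPM against 126, 140.2 and 158 CPM (0.61 ± 0.17, adjusted p = 0.036). None of these groups overlapped. Hepatocyte markers were lower in Protandim females (81895 to 107581 CPM) than in their controls (111036 to 114177 CPM). Their part in the result was not tested. With the length and GC trend removed 1 gene was called. In males 0 genes passed (2 at an unadjusted p under 0.05, 0 by DESeq2; 0.0135% of all genes called), with a median of 0.04, and the difference between the sexes passed in 0 genes (8 at an unadjusted p under 0.05, 0 by DESeq2; 0% of all genes called). The mean of the sexes rose in Atp5e (0.54 ± 0.11) and Atp5l (0.35 ± 0.09), where 1.38% of genes passed (0.81% higher). Without female 3 and the other libraries with other-tissue markers none of these calls remained and the median in females was 0.31; leaving out control female 1, control female 2 or Protandim female 2 left 0 genes in females, Protandim female 3 alone left 1, and Protandim female 1 left 16.

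Rapamycin at 6 months raised 3 of 46 genes in the mean of the sexes, where 0.412% of all genes passed (0.229% higher), with a median of 0.12. Atp5mpl measured 58.7, 59.5 and 57.6 CPM in females against 42.9, 39.9 and 47.3 CPM, and 54.2, 49.97 and 61.5 CPM in males against 34.0, 49.8 and 34.8 CPM (0.46 ± 0.10, adjusted p = 0.038, edgeR). Uqcrb measured 117, 127 and 134 CPM against 105, 106 and 106 CPM in females, and 131, 124 and 131 CPM against 89.5, 108 and 92.7 CPM in males (0.33 ± 0.08, adjusted p = 0.045). Atp5e measured 160.2, 205 and 216 CPM against 131, 125 and 156 CPM in females, and 204, 178 and 196 CPM against 129.7, 165 and 129 CPM in males (0.47 ± 0.11, adjusted p = 0.049). All 3 genes were above their controls in every library of both sexes. Within a sex 0 passed (edgeR; 9 at an unadjusted p under 0.05 in females and 11 in males, 0 by DESeq2 in each; 0.0742% and 0% of all genes called). Without the libraries with other-tissue markers, and without any 1 of 9 of the 12 libraries, 0 genes passed in the mean. At 12 months 0 of 43 passed in edgeR (0 at an unadjusted p under 0.05, 0 by DESeq2, 0% of all genes called). The median was 0.14 in the mean of the sexes. In that mean and in females (median 0.23) 43 of 43 values were positive, and in males 36 of 43. In females and in males 0 passed (1 at an unadjusted p under 0.05 in each, 0 by DESeq2; 0.0147% and 0.00733% of all genes called).

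Acarbose, which slows the digestion of starch, and 17-alpha-estradiol raised or lowered none of the genes in edgeR. Acarbose in males of 12 months had positive values in 43 of 43 genes, with a median of 0.49 against 0.01 over all genes. Of all 13639 genes tested there, 6932 had positive values. Of the 43, 0 passed (24 at an unadjusted p under 0.05, 0 by DESeq2), and 0.022% of all genes passed at an adjusted p under 0.05. That share is not a background for the 24, as none was computed at an unadjusted p. Sdhb measured 379, 275 and 386 CPM against 223, 268 and 221 CPM, and Atp5f1, for subunit b of the peripheral stalk, 485, 380.0 and 497 CPM against 296, 365 and 313 CPM. In both genes acarbose male 2 lay close to control 2 and the other treated libraries lay well above (0.55 ± 0.20 and 0.48 ± 0.15, adjusted p = 0.49 and 0.43). In the mean of the sexes at 12 months 43 of 43 values were also positive. There 0 passed (9 at an unadjusted p under 0.05, 1 by DESeq2), where 0.0587% of all genes passed. The sexes differed in 0 genes (0 at an unadjusted p under 0.05, 0 by DESeq2; 0.00733% called). The 46 genes took 1.32, 1.08 and 1.42% of the counts of the acarbose males and 0.934, 1.13 and 0.981% of those of the controls. Hepatocyte markers summed to 113841 to 122588 CPM in the acarbose males and 78436 to 111883 CPM in their controls, without overlap, and their part in these values was not tested. In acarbose females of 12 months the median was 0.09 and 0 passed (0 at an unadjusted p under 0.05, 0 by DESeq2; 0% of all genes called). Between the ages of acarbose 0 of 46 genes passed (edgeR; 12 at an unadjusted p under 0.05, 3 by DESeq2), where 1.06% of all genes passed. In females of 6 months 0 passed (6 at an unadjusted p under 0.05, 1 by DESeq2), where 10.6% of all genes passed. At 6 months the mean of the sexes had a median of 0.00 and 0 passed (3 at an unadjusted p under 0.05, 0 by DESeq2), where 6.16% of all genes passed. With 17-alpha-estradiol the median was 0.02 and 0 passed (1 at an unadjusted p under 0.05, 0 by DESeq2; 0.385% of all genes called). In females 0 passed (0 at an unadjusted p under 0.05, 0 by DESeq2; 2.87% of all genes called). In males 0 passed (1 at an unadjusted p under 0.05, 0 by DESeq2; 0.0607% called). The response to 17-alpha-estradiol differed between the sexes in 0 genes (0 at an unadjusted p under 0.05, 0 by DESeq2; 0.054% of all genes called).

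**Figure D4:**
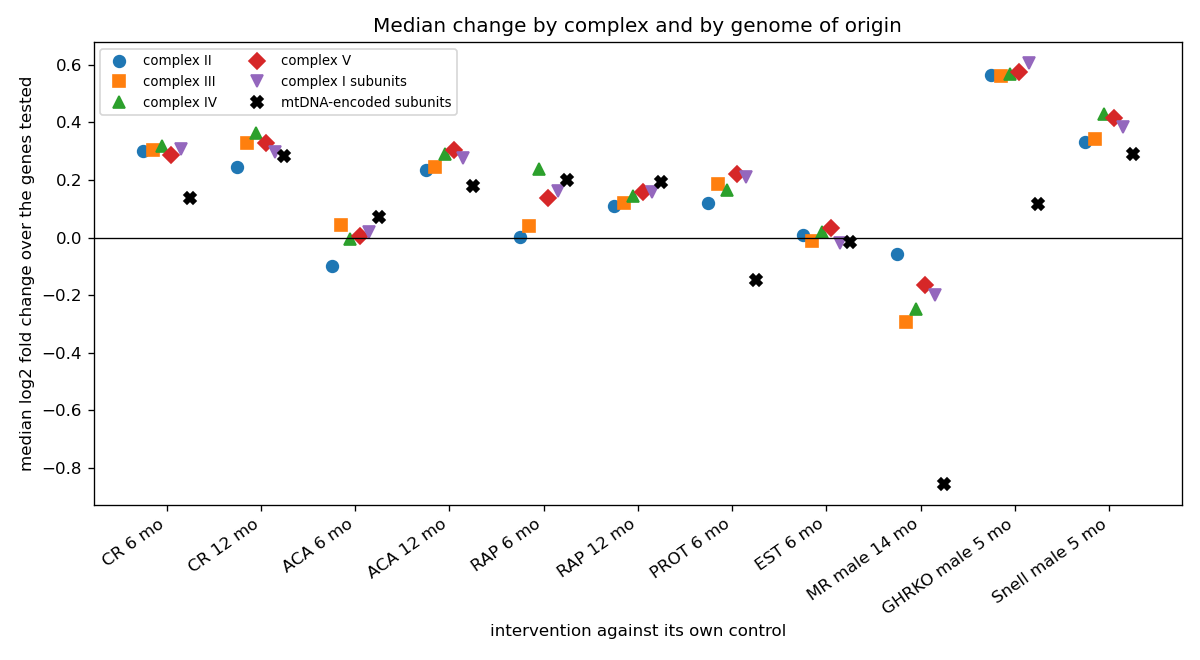
For each intervention against its own control, the points give the median log2 fold change over the tested genes of complexes II, III, IV and V, of the nuclear genes of complex I and of the subunits encoded by mtDNA. In GHRKO the medians of complexes II to V lie between 0.56 and 0.58 and the mtDNA median at 0.12; in methionine restriction the mtDNA median is lowest at -0.85.

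The subunits encoded by mtDNA, which assemble with these proteins, were compared with them. In GHRKO 1 of 13 rose (mt-Nd6, 0.65 ± 0.16) with a median of 0.12, in Snell dwarf 1 (mt-Atp6, 0.45 ± 0.14; median 0.29), and in calorie restriction at 6 months 1 (mt-Co1, 0.29 ± 0.08; median 0.14). At 12 months of calorie restriction 5 rose, among them mt-Nd1 (0.48 ± 0.10) and mt-Cytb (0.49 ± 0.12), with a median of 0.28. Over all genes tested 7.25% rose in GHRKO, 9.34% in Snell dwarf, 12.5% in calorie restriction at 6 months and 6.74% at 12 months. A single gene of 13 is near or below that background. In methionine restriction the median was -0.85 and 1 fell (mt-Nd2, -1.01 ± 0.21). In Protandim females 3 fell, among them mt-Atp8 (-1.08 ± 0.23) and mt-Co2 (-0.98 ± 0.29), with a median of -0.39. Among all genes tested, 1.87% fell in methionine restriction and 5.35% were called in either direction in Protandim females. In Protandim females the nuclear median (0.36) and the mtDNA median had opposite signs. Differences between nuclear and mtDNA genes were not tested. Levels of the 13 mtDNA genes were very uneven. Median CPM over all libraries was 1.12 for mt-Co3, 2.43 for mt-Co2 and 4.97 for mt-Nd4l against 14151 for mt-Co1. The medians of change give each of these genes the same weight, and the reason for the uneven levels was not tested.

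Of the 36 nuclear genes of complex I listed, 33 rose in GHRKO with a median of 0.61, and 14 in Snell dwarf (0.38). In calorie restriction 21 rose at 6 months (0.31) and 4 at 12 months (0.30), and in methionine restriction 2 fell (-0.20). Among all genes tested, 7.25% rose in GHRKO, 9.34% in Snell dwarf, and 12.5% and 6.74% in calorie restriction at 6 and 12 months. In methionine restriction 1.87% of all genes fell. Of the assembly factors of complexes II to V, 5 of 30 tested rose in GHRKO with a median of 0.20, 4 of 30 rose and 1 fell in Snell dwarf (0.12), and 2 of 31 rose and 3 fell in calorie restriction at 6 months (0.02). Rises among them were more frequent than the 7.25% and 9.34% of all genes higher in GHRKO and Snell dwarf. In calorie restriction they were less frequent than the 12.5% higher. Calls in either direction stayed below the 20.1% and 26.1% of all genes in Snell dwarf and calorie restriction, and 14.8% were called in GHRKO. These differences were not tested. Coa6, a copper-handling factor for complex IV, rose in GHRKO (0.68 ± 0.15), in Snell dwarf (0.51 ± 0.12) and in calorie restriction at both ages (0.56 ± 0.13 and 0.60 ± 0.13), and fell in methionine restriction (-0.51 ± 0.11). Cox15, for heme A synthesis, fell in calorie restriction at 6 months (-0.67 ± 0.08).

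The regulators of mitochondrial biogenesis named here are a selection of the 14 listed. How many of them were called in GHRKO, Snell dwarf and calorie restriction is not given. Among all genes tested, 14.8% were called in GHRKO, 20.1% in Snell dwarf, and 26.1% and 13.8% in calorie restriction at 6 and 12 months. Esrra, for ERRalpha, rose in GHRKO (0.58 ± 0.13, adjusted p = 0.018), Snell dwarf (0.69 ± 0.11, adjusted p = 0.0040) and calorie restriction at 6 (0.49 ± 0.11, adjusted p = 0.0021) and 12 months (0.61 ± 0.16, adjusted p = 0.012). Ppargc1a, for PGC-1alpha, rose in GHRKO (1.05 ± 0.24) and Snell dwarf (3.09 ± 0.63); in calorie restriction it was 0.59 ± 0.30 at 6 months (adjusted p = 0.15) and 0.00 ± 0.27 at 12. Gabpb1, for a subunit of GABP, fell in calorie restriction at 6 (-0.55 ± 0.11) and 12 months (-0.43 ± 0.10). In methionine restriction 0 of the 14 regulators passed (edgeR), with Esrra at 0.12 ± 0.17. As 3.8% of all genes passed there, 0 of 14 is near that share. The medians of the 14 were -0.22 in GHRKO and -0.09 in Snell dwarf, below 0 where the median of the 46 genes was above it. Whether these regulators acted on the 46 genes was not tested.

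Tissue-restricted isoforms of complex IV were high in single libraries of several groups. Cox6a2, the heart and muscle form of subunit 6a, had 370 counts in rapamycin male 3 of 12 months, 163 in Snell dwarf 1 and 144 in calorie-restricted female 2 of 6 months, the libraries with the most muscle marker counts (29499, 6032 and 23766). Its rise in calorie restriction at 6 months (4.22 ± 1.23, adjusted p = 0.013) lay in 2 libraries with muscle markers: restricted female 2 had 5.43 CPM and restricted male 2 0.73 CPM, while the other 4 restricted libraries and the 6 controls had at most 0.13 CPM. It did not pass without female 2 (1.94) or without male 2 (2.81), and was 0.53 without all libraries with other-tissue markers. Cox8b, the form of subunit 8 in muscle and brown fat, had 544 counts in rapamycin male 2 of 6 months beside 1258 of Ucp1 and 42563 of adrenal markers. It had 83 in control male 3 of 6 months beside 220 of Ucp1, and 36 in calorie-restricted female 1 of 12 months beside 210. Rapamycin male 3 of 12 months (132 counts), calorie-restricted female 2 of 6 months (87) and Snell dwarf 1 (39) had Cox8b with muscle markers and 0 counts of Ucp1. In the 3 libraries with the most Ucp1, Cidea and Adipoq, further genes of fat cells, were also high, at 965 and 844, 204 and 152, and 171 and 117 counts.

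In methionine restriction Cox6a2 was high without the muscle markers. It had 154, 228 and 77 counts (5.34, 6.41 and 2.21 CPM) in the restricted mice and 0, 31 and 30 counts (0.00, 1.22 and 1.0 CPM) in controls, beside 16, 22 and 29 counts over the 8 muscle markers in the restricted mice and 16, 35 and 37 in controls. Restricted libraries lay above all controls, but the difference did not pass (2.67 ± 0.86, adjusted p = 0.15, edgeR). The muscle genes Acta1 and Ckm had 0 counts in restricted mice 1 and 2, and 10 and 1 in mouse 3. Cox8b ran the other way, with 0 counts in each restricted mouse and 1, 16 and 11 in controls, and so did Cidea, with 0 in each restricted mouse and 4, 152 and 137 in controls. In rapamycin females of 6 months Cox6a2 had 39, 39 and 20 counts against 0, 0 and 2 in controls, with 27, 45 and 38 muscle counts (5.34 ± 1.75, adjusted p = 0.21); rapamycin male 1 had 34 counts and males 2 and 3 had 4 and 2.

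**Figure D5:**
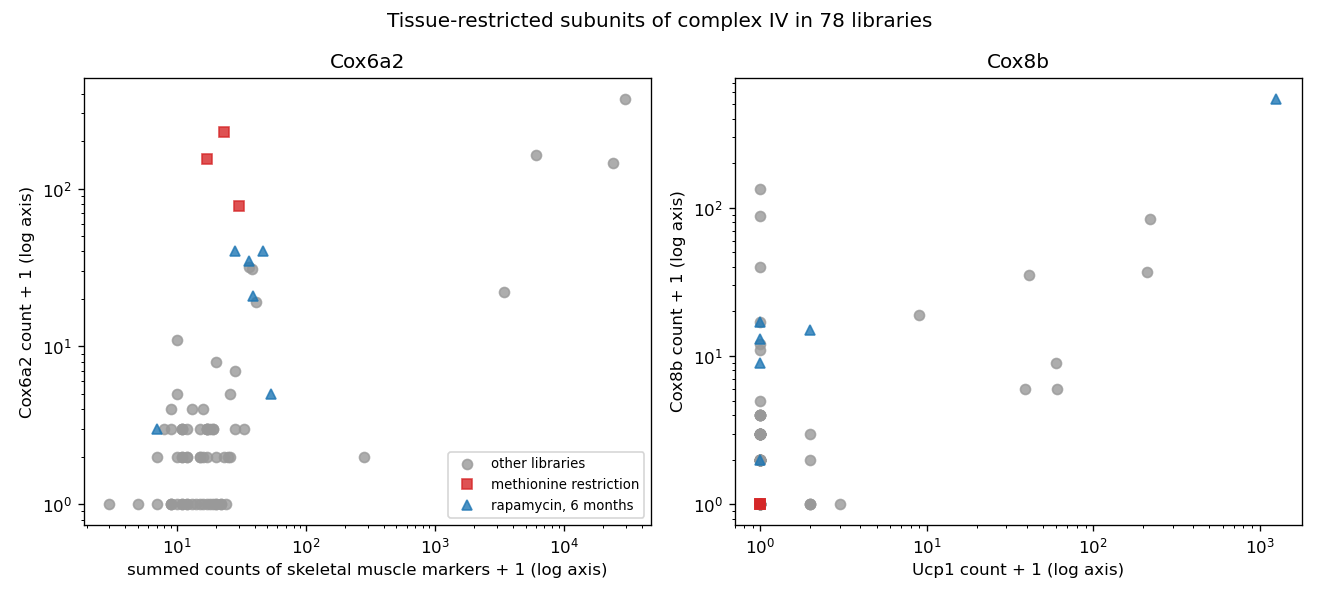
Each point is 1 of 78 libraries, with the count of Cox6a2 against the summed count of muscle markers on the left and the count of Cox8b against that of Ucp1 on the right, each plus 1 on log axes. The methionine-restricted libraries (red) lie high in Cox6a2 at 16 to 29 muscle counts, and rapamycin male 2 of 6 months (blue, top right) has the most Cox8b and Ucp1.

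Across the 11 interventions, counting the mean of the sexes where both were measured, Uqcrb, an accessory subunit of complex III, rose in 5: both ages of calorie restriction, rapamycin at 6 months, GHRKO and Snell dwarf. Atp5b, Atp5c1 and Atp5e rose in 4 each. Sdha, Cox6b2 and Cox8b were called in none, and Atp5s was the 1 gene that fell without rising anywhere. Comparisons at 6 months share their controls, as do those at 12 months, so their calls are not independent of each other.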

How the data were processed

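Liver RNA of 78 mice was sequenced from Illumina TruSeq RNA v2 libraries, per the labels' protocols. The deposited table holds raw gene counts for 43629 genes in each library; bcl2fastq 1.8.4, Trimmomatic 0.32, STAR 2.5.2b, featureCounts 1.5 and build GRCm38 (mm10) are named per the submitters' processing notes, and the strand setting is not given in the sources used here. Library totals of 15521588 to 37778510 counts limit the precision of genes near 1 CPM.

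Groups came from the sample labels. Counts were fitted in R 4.3.3 with edgeR 4.0.16 (filterByExpr, TMM, robust quasi-likelihood F test), once for the 6-month, 12-month, methionine restriction, GHRKO and Snell sets and once jointly for both ages, with Benjamini-Hochberg adjustment over all genes of a fit. SE is the absolute log2 fold change over the square root of F. Alternatives were DESeq2 1.42.0, another size factor (RLE), keeping low genes, and the replicate number as a block. A spline trend on exon length and GC content was also removed, as an offset in the edgeR fit. Further runs left out each library, or the 9 libraries with over 1000 counts of kidney, muscle, adrenal or pancreas markers. The test was tried on simulated data with 200 changed genes.

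The members, gene lists, alternatives and the rule for named genes were chosen with earlier results of these data known. Replicate numbers did not pair the samples: no comparison had all 3 correlations of same-numbered deviations over 0.1.
The rule gave library values for up to 3 members called per direction with the smallest adjusted p, for the tissue-restricted isoforms and for complex II, Cyc1 and Cycs in calorie restriction, and up to 2 genes per direction of other lists. Sdha, Atp5b, Cyc1 and Cycs in the dwarf models, the acarbose male genes, Coa6 and Ppargc1a across comparisons, Cidea and Adipoq were named outside it, after their values were seen.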

Additional observations from a re-analysis of the deposited data

Results flagged for a closer look

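Cycs, for cytochrome c, was the gene whose response to calorie restriction differed between the ages. The effect at 12 months minus that at 6 months was 0.81 on the log2 scale (adjusted p = 0.000207, edgeR's quasi-likelihood test in the joint fit of both ages), from -0.12 at 6 months to 0.70 at 12 months in the separate fits. The difference kept its direction and its call under each alternative run.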

How the results depend on the processing

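Counts of the 46 genes called moved by over 1.5 times as follows, and the cause was not tested. In the comparisons listed for it, DESeq2 also called more of all genes tested. For calorie-restricted males of 6 months it called 1613 against 1162 by edgeR, and for methionine restriction 1119 against 527. For Protandim females it called 1561 against 793. For the other settings and for libraries left out, calls over all genes are not given here. With DESeq2 the counts were 21 for calorie restriction at 6 months in males, 10 in females, 3 in each sex at 12 months, 13 for methionine restriction, 17 for Protandim in females and 6 in the mean of the sexes, 6 for rapamycin at 6 months, 1 for acarbose in females of 6 months and in the 12-month mean, and 3 for acarbose between ages. With the length and GC trend removed they were 20 and 9 for calorie restriction at 6 months in males and females, 17 in the 12-month mean, 2 in each sex at 12 months, 3 for methionine restriction, and 1 each for Protandim females, the Protandim mean, rapamycin at 6 months, acarbose females of 6 months and acarbose between ages. Without the low-count filter they were 3 and 2 for calorie restriction at 6 months in females and males, 1 in the 12-month mean, 10 for methionine restriction, 2 for Protandim females, 1 for the Protandim mean and 0 for rapamycin at 6 months. With the replicate block they were 8 and 16 for calorie restriction at 6 months in females and males, 13 for Protandim females, 5 for the Protandim mean, 9 for Snell dwarf, and 1 for acarbose females of 6 months and for acarbose between ages; the numbers did not pair the samples. Without the 9 libraries with other-tissue markers, which leaves fewer samples, they were 10 for calorie restriction at 6 months, 1 in each sex, 0 for Protandim in females and in the mean, 0 for rapamycin at 6 months, and 1 between control sexes at 6 months.

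Leaving out 1 library at a time gave 16 to 30 for GHRKO, 1 to 22 for Snell dwarf, 19 to 37 for calorie restriction at 6 months (1 to 6 in females, 2 to 24 in males), 2 to 12 at 12 months (0 to 1 in females, 0 to 1 in males), 0 to 17 for methionine restriction, 0 to 16 for Protandim females, 0 to 7 for the Protandim mean, 0 to 3 for rapamycin at 6 months, 0 to 4 for acarbose females of 6 months and 0 to 2 for the acarbose mean. RLE size factors moved 0 of 39 counts. Leaving out libraries was not run for acarbose between ages. In the methionine restriction and GHRKO sets no library passed the bound on kidney, muscle, adrenal or pancreas markers, so none was left out for it. Markers of fat cells were not part of that bound, so libraries with such counts stayed in the run without other-tissue markers. Control male 3 of 6 months held 892 counts of fat cell markers, 220 of them Ucp1. Calorie-restricted male 3 of 12 months held 162, with 59 of Ucp1. GHRKO 1 held 280 counts of muscle markers and 128 of fat cell markers. Controls 2 and 3 of methionine restriction held 154 and 139 counts of fat cell markers. Nearly all of these were Cidea, at 152 and 137 counts, with 1 count of Adipoq and 0 of Ucp1 in each. These 2 sums thus rest on 1 gene, and its source was not tested. Genes near 1 CPM rest on few counts, and each group holds 3 mice.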
